A study of Bos indicus x Bos taurus with 17 samples.

Results

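Albumin (ALB), alpha-fetoprotein (AFP), afamin (AFM) and the vitamin D binding protein (GC) form one gene family of plasma carriers, and the fetuins (AHSG and FETUB) and transthyretin (TTR) are further proteins that the liver secretes into plasma. These 7 genes were followed across the liver and skeletal muscle of bovine fetuses at about day 105. They were found by an exact match of their symbols among 21048 listed genes, and each symbol was listed once. Fetuses were F1 crosses of Bos taurus indicus (Nelore) and Bos taurus taurus (Holstein), all labelled healthy. Control-AI fetuses (n = 2, numbered 2 and 4) were conceived by artificial insemination. ART-Normal fetuses (n = 4, numbered 1 to 4) were produced in vitro. The paper describes ART-Normal weights as similar to those of the controls, and lists no weight for ART-Normal 4. Each fetus gave 1 liver and 1 muscle library, and the fetal identifiers in the labels show separate animals. ART-Normal 4 is in the labels only, and the paper describes its control RNA-seq as coming from an earlier study, whereas the labels place both controls with these libraries.

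Hepatocytes make nearly all plasma albumin. In fetal life AFP is made at high levels beside it and declines around and after birth. ALB carries fatty acids, bilirubin and many other ligands, AFM carries vitamin E, GC carries vitamin D metabolites and binds actin, and TTR carries thyroid hormone and, through retinol binding protein, retinol. AHSG, also called fetuin-A, inhibits the formation of calcium phosphate crystals and is very abundant in fetal bovine serum. FETUB inhibits the protease that hardens the egg coat.

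The deposited values were read counts per gene, given here as CPM, the count scaled to a common library size, after TMM scaling within a tissue, with positions on ARS-UCD1.2. ALB (gene 280717) lay on the plus strand at chr6:88484961-88503330. AFP (506011) followed it at chr6:88511182-88532729, with 7851 bases between them. AFM (508264) lay at chr6:88543286-88570082, a further 10556 bases on, and its last part overlapped LOC100140503 on the same strand by 865 bases. GC (530076) lay apart from these on the minus strand, at chr6:86955729-87007189. The fetuin genes were neighbours on the minus strand, FETUB (504615) at chr1:80560871-80576178 and AHSG (280988) at chr1:80611857-80618770. TTR (280948) lay at chr24:25544099-25552959 on the minus strand. None of the 7 overlapped a gene on the opposite strand, and how strand was handled in counting is not stated in the sources used here. The listed lengths are whole gene spans, introns included, so levels were not compared between genes.

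Liver libraries held 18454088 to 43339598 counts and muscle libraries 12433300 to 23578362, with Control-AI 2 the shallowest in both tissues. The liver library of Control-AI 2 stood apart. The 7 genes took 20.9% of its counts, against 4.56% in Control-AI 4 and 2.72% to 3.95% in the ART-Normal livers. Its leading gene, AHSG, held 2061871 counts (11.2% of the library), whereas the highest count of any gene in the other 5 livers was 263894 to 348574. Values are therefore given with Control-AI 2 apart. Both tissues matched their labels by markers: all 20 hepatocyte markers outside the 7 genes were higher in liver than in muscle in ART-Normal fetuses, and all 12 skeletal muscle markers were higher in muscle. Over all genes tested between these tissues, 40.5% were higher in liver and 39% in muscle.

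ALB in liver measured 9304, 6483, 10069 and 7844 CPM in ART-Normal 1 to 4, 12273 CPM in the liver of Control-AI 4 and 71505 CPM in that of Control-AI 2. The ART-Normal mean was 8425 ± 1590 CPM (SD, n = 4), and both controls lay above all 4 ART-Normal livers. Counting error was small beside this spread, as the 95% Poisson interval of the ART-Normal 1 value was 9264 to 9344 CPM. AFP measured 9672, 5351, 10808 and 8374 CPM in ART-Normal 1 to 4 (mean 8551 ± 2354, SD, n = 4), 12293 CPM in the liver of Control-AI 4 and 39470 CPM in that of Control-AI 2. It showed the same order of groups as ALB, and the widest spread among ART-Normal livers of the 7 genes, with a highest value 2.02 times the lowest.

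AFM measured 532, 329, 574 and 398 CPM in ART-Normal 1 to 4 (mean 459 ± 114, SD, n = 4), 432 CPM in the liver of Control-AI 4 and 367 CPM in that of Control-AI 2. Both controls fell inside the ART-Normal range, unlike those of the 2 neighbouring genes upstream. GC measured 3651, 3140, 3707 and 2977 CPM in ART-Normal 1 to 4 (mean 3369 ± 365, SD, n = 4), 4171 CPM in the liver of Control-AI 4 and 4977 CPM in that of Control-AI 2. This was the narrowest ART-Normal spread of the 7, with a highest value 1.25 times the lowest, and both controls lay above it.

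AHSG measured 5490, 4688, 6015 and 3736 CPM in ART-Normal 1 to 4 (mean 4982 ± 994, SD, n = 4), 7796 CPM in the liver of Control-AI 4 and 142470 CPM in that of Control-AI 2. Control-AI 2 was thus 18.3 times the next highest liver. FETUB measured 4078, 3478, 4848 and 3671 CPM in ART-Normal 1 to 4 (mean 4019 ± 607, SD, n = 4), 4705 CPM in the liver of Control-AI 4 and 5907 CPM in that of Control-AI 2, so that Control-AI 4 lay inside the ART-Normal range. TTR measured 1894, 1286, 2460 and 1553 CPM in ART-Normal 1 to 4 (mean 1798 ± 507, SD, n = 4), 2121 CPM in the liver of Control-AI 4 and 2133 CPM in that of Control-AI 2. Its controls were nearly equal and inside the ART-Normal range. Among the ART-Normal livers, ART-Normal 3 was highest for all 7 genes. ART-Normal 2, the deepest library, was lowest for ALB, AFP, AFM, FETUB and TTR, and ART-Normal 4 was lowest for GC and AHSG.

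**Figure D1:**
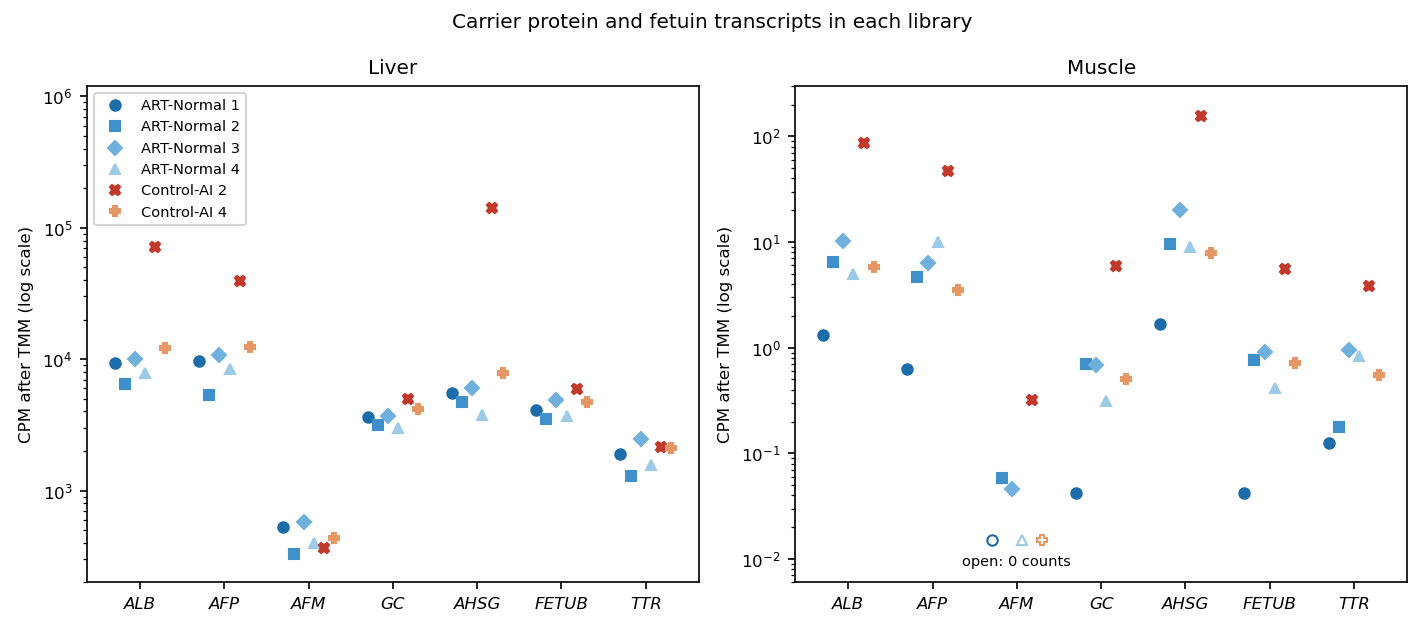
Levels of the 7 genes in each library, as CPM after TMM scaling on a log axis, with liver on the left and muscle on the right; each point is 1 library and open points mark 0 counts. Control-AI 2 lies far above the other livers for ALB, AFP and AHSG (71505, 39470 and 142470 CPM) but not for AFM or TTR, and it is the highest muscle library for all 7 genes.

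The excess in Control-AI 2 liver fell on 3 of the 7 genes. On the log2 scale, after adding 0.5 CPM, it exceeded the mean of the other 5 livers by 4.68 for AHSG, 2.96 for ALB and 2.09 for AFP. The differences were 0.51 for FETUB, 0.50 for GC, 0.20 for TTR and -0.31 for AFM. Of 11304 tested genes, 59 (0.522%) were at least 4-fold higher in this library than the mean of the others, and AHSG, ALB and AFP ranked 5, 23 and 55 among all genes. Members of one chromosomal cluster therefore differed, with ALB and AFP high and AFM not, and so did the fetuin neighbours AHSG and FETUB.

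Most abundant liver genes did not share this difference. Among the 72 genes with a mean of at least 1000 CPM in the other 5 livers, the median log2 difference of Control-AI 2 was 0.23. Of these, 5 were at least 4-fold higher and 2 at least 4-fold lower. The higher genes were AHSG, ALB, AFP, the fetal globin gene HBG (log2 difference 3.60) and SERPINA1 (3.47), which encodes the protease inhibitor alpha-1 antitrypsin. The lower genes were EEF1A1 (-2.34), a translation elongation factor, and MT1A (-2.07), a metallothionein. HBG measured 19493 CPM in Control-AI 2 liver, against 1059 to 2278 CPM in the other 5. SERPINA1 measured 56356 CPM there, against 3154 to 7642 CPM. The summed level of the 20 hepatocyte markers was 126076 CPM in Control-AI 2, 59538 CPM in Control-AI 4 and 41926 to 59471 CPM in ART-Normal. Much of that excess was SERPINA1, since without it the sums were 69720, 51897 and 38772 to 53744 CPM in the same order, and Control-AI 2 lay above all other livers for 14 of the 20 markers and within their range for 6. The 12 erythroid markers summed to 25186 CPM in Control-AI 2, 8207 CPM in Control-AI 4 and 7440 to 8569 CPM in ART-Normal. Without HBG the erythroid order turned, to 5693, 5929 and 6101 to 6905 CPM. Skeletal muscle markers in these livers summed to 37.9, 8.38 and 6.95 to 10.5 CPM. The part of these differences in the levels of the 7 genes was not tested, and in bulk tissue more cells of a type and more RNA per cell cannot be told apart.

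**Figure D2:**
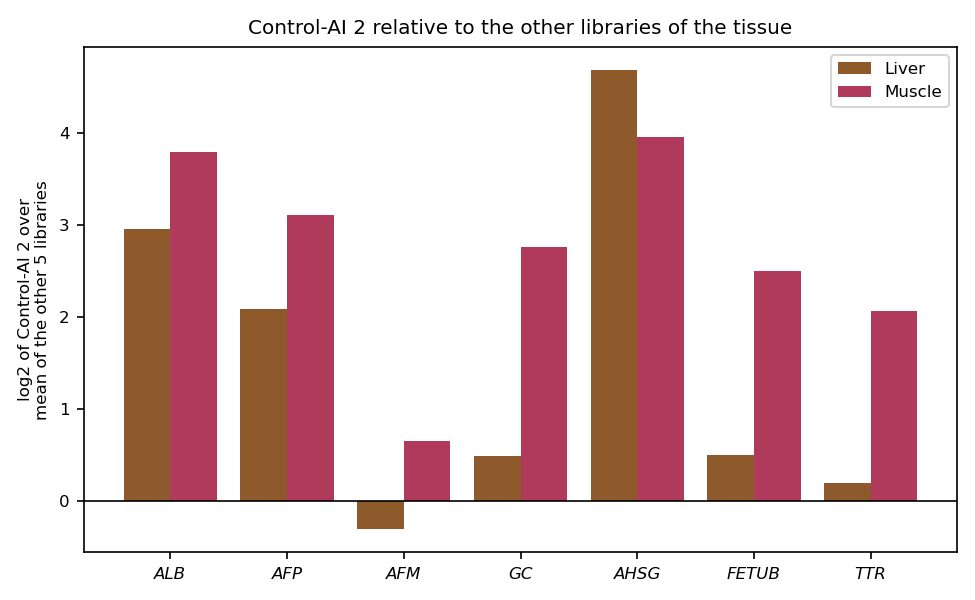
Log2 of the Control-AI 2 level over the mean of the other 5 libraries of the same tissue for each gene, with 0.5 CPM added to both, in liver (brown) and muscle (red). In liver the bars run from -0.31 for AFM to 4.68 for AHSG, and in muscle all 7 lie above 0, from 0.65 for AFM to 3.95 for AHSG.

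Whether conception by ART went with other levels of these genes was tested by edgeR's quasi-likelihood test with Benjamini-Hochberg adjustment over all tested genes. In liver, 0 of 11304 genes (0%) passed an adjusted p of 0.05, so 0 of the 7 did, while 948 genes (8.39%) had an unadjusted p under 0.05. Relative to the controls, AHSG in ART-Normal livers stood at -3.91 on the log2 scale (standard error 0.78, adjusted p = 0.354). It was -2.31 for ALB (0.53, adjusted p = 0.392) and -1.60 for AFP (0.43, adjusted p = 0.467). Smaller values were found for GC (-0.44, adjusted p = 0.589), FETUB (-0.40, 0.592), TTR (-0.24, 0.733) and AFM (0.20, 0.761). All 4 ART-Normal livers lay below both controls for ALB, AFP, GC and AHSG, which is 4 of 7 genes. Over all tested genes, 9.16% had ART-Normal wholly below the controls and 9.23% wholly above.

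The size of the difference in ALB, AFP and AHSG rested on Control-AI 2. Without it, in a fit that called 1 of 11638 genes (0.00859%), the log2 fold changes against Control-AI 4 were -0.64 for AHSG (standard error 0.26), -0.53 for ALB (0.27) and -0.51 for AFP (0.33), all with an adjusted p of 0.999. GC then stood at -0.30, TTR at -0.23, FETUB at -0.22 and AFM at 0.09, again each with an adjusted p of 0.999. Without Control-AI 4 instead, the values against Control-AI 2 were -4.835 for AHSG (adjusted p = 1.14e-06), -3.08 for ALB (1.28e-05) and -2.20 for AFP (0.000761). These 3 of 7 then passed, in a fit that called 830 of 11602 genes (7.15%) and in which the single control is assumed to vary like the ART-Normal group. GC, FETUB, TTR and AFM did not pass in either fit. The likelihood ratio test with all 6 livers called 89 genes (0.787%), among them AHSG, ALB and AFP (adjusted p of 0.000145, 0.00242 and 0.0243), and the Wald test of DESeq2 called 56 (0.495%), with AHSG the single member (adjusted p = 0.00186).

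**Figure D3:**
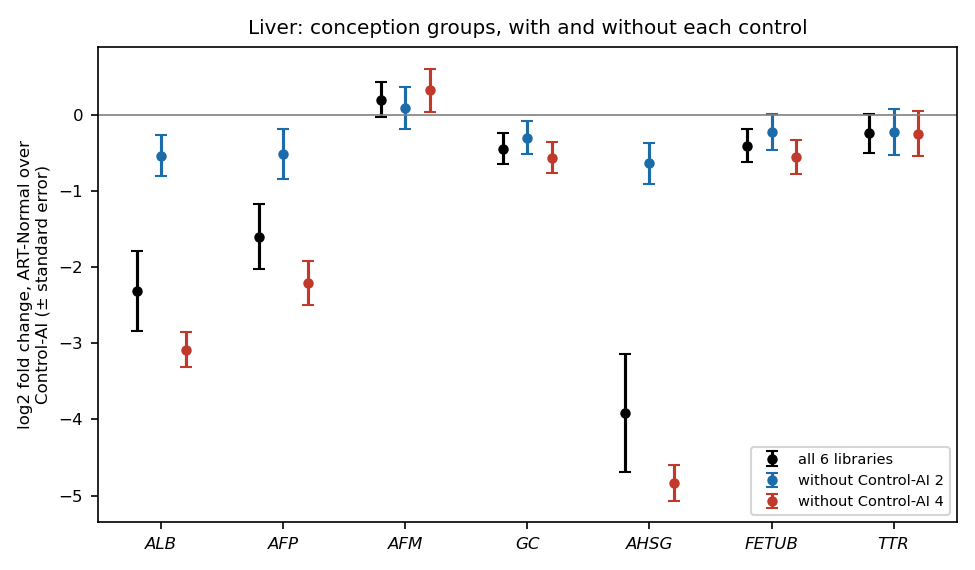
Difference between ART-Normal and Control-AI livers for each gene, as a log2 fold change that is negative where ART-Normal is lower, with the standard error from edgeR as bars, for all 6 livers (black), without Control-AI 2 (blue) and without Control-AI 4 (red). AHSG moves from -3.91 to -0.64 without Control-AI 2 and to -4.835 without Control-AI 4, while TTR stays between -0.24 and -0.23.

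Ratios of counts within a library do not depend on the scaling between libraries, and they are used here to compare libraries, not the levels of the genes. The ratio of AHSG to its neighbour FETUB was 1.02 to 1.66 in the other 5 livers and 24.1 in Control-AI 2. AHSG to ALB was 0.476 to 0.723 in those 5 livers and 1.99 in Control-AI 2. AFP to ALB was 0.825 to 1.07 in the 5 livers and 0.552 in Control-AI 2. GC to FETUB was 0.765 to 0.903 in all 6 livers, with Control-AI 2 at 0.843, inside the range of the others. With 4 against 2 livers a two-sided exact permutation test has 15 splits and cannot go below p = 0.0667. The log2 ratio of AFP to ALB was 0.42 higher in ART-Normal (exact permutation p = 0.133), a difference that was -0.01 without Control-AI 2. AHSG to FETUB differed by -2.36 on the log2 scale (exact permutation p = 0.0667), with both controls above all ART-Normal livers, and by -0.43 without Control-AI 2. AHSG to ALB differed by -0.93 (exact permutation p = 0.133), and by -0.11 without that library. GC to FETUB differed by -0.04 (exact permutation p = 0.8), and by -0.08 without it.

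**Figure D4:**
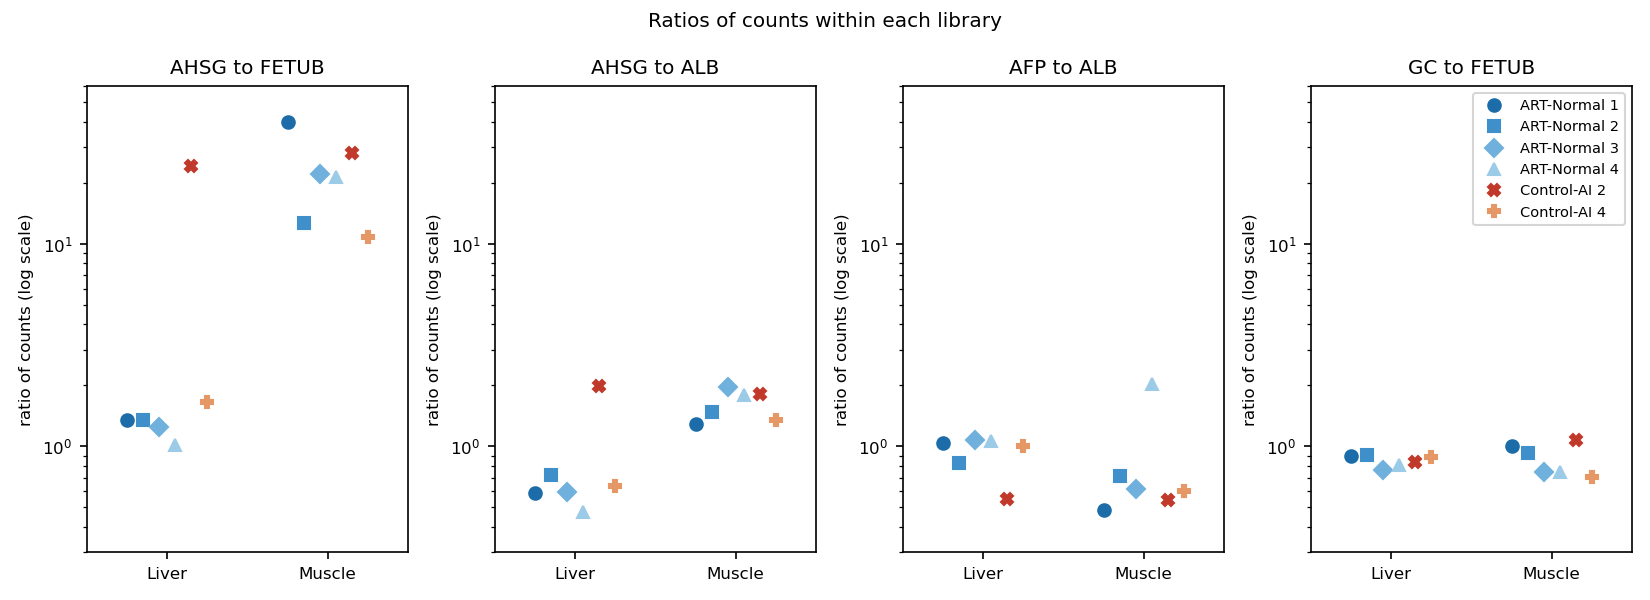
Ratios of read counts between pairs of the 7 genes within each library, on a log axis, in liver and muscle; each point is 1 library. In liver, AHSG to FETUB is 24.1 in Control-AI 2 against 1.02 to 1.66 in the others, in muscle it is 10.8 to 40.0 in all 6 libraries, and GC to FETUB is 0.706 to 1.07 over both tissues. The 40.0 is from ART-Normal 1 muscle, which held 40 AHSG counts, 1 FETUB count and 1 GC count.

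All 7 genes were far higher in liver than in muscle of the ART-Normal fetuses. Of 12676 genes tested between the tissues, 10073 (79.5%) passed and 5135 (40.5%) were higher in liver, so passing alone sets these genes apart from little. The fitted log2 differences were 14.09 for AFM (standard error 0.37), 13.13 for GC (0.37), 13.08 for FETUB (0.41), 11.89 for TTR (0.43), 10.80 for AFP (0.65), 10.68 for ALB (0.54) and 9.11 for AHSG (0.60). The largest adjusted p was 6.73e-09, for AHSG. By the size of this difference AFM ranked 8, GC 34, FETUB 39, TTR 92, AFP 157, ALB 168 and AHSG 265 among all tested genes. With the fetus as a block all 7 remained past the threshold.

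The fitted values of nearly absent muscle genes depend on the prior count, so pooled counts over the 4 fetuses are given beside them. AHSG, with 621597 liver and 818 muscle counts, was 519 times higher per count in liver (95% counting interval 484 to 556). ALB was 1515 times higher (1383 to 1663) and AFP 1631 times (1483 to 1798). TTR was 3444 times higher (2557 to 4759), FETUB 8115 times (6003 to 11260) and GC 8475 times (6065 to 12238). AFM had 2 muscle counts in all, and its ratio of 18843 had an interval of 5216 to 155597. These intervals cover counting error in the pooled reads only, not the spread between fetuses. That spread was wider: the muscle share of ALB counts was 0.0140% of the liver share in ART-Normal 1 and 0.0978% in ART-Normal 3. The fetuins lay at opposite parts of the pooled range. In each of the 4 fetuses the muscle share, relative to the liver share, was higher for AHSG than for FETUB.

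Muscle held few reads of any of the 7 genes, 91 to 866 in the ART-Normal libraries, 446 in Control-AI 4 and 3847 in Control-AI 2. AHSG counts in ART-Normal 1 to 4 were 40, 164, 443 and 171, with 184 in Control-AI 4 and 1971 in Control-AI 2. ALB counts were 31, 111, 226 and 95, with 137 in Control-AI 4 and 1086 in Control-AI 2. AFP counts were 15, 79, 140 and 192, with 83 in Control-AI 4 and 593 in Control-AI 2. For these genes Control-AI 4 lay inside the ART-Normal range and Control-AI 2 far above it. The conception groups overlapped in muscle for all 7 genes, whereas 7.22% of tested genes had ART-Normal wholly below the controls and 8.76% wholly above.

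GC had 1, 12, 15 and 6 counts in ART-Normal 1 to 4, 12 in Control-AI 4 and 75 in Control-AI 2. FETUB had 1, 13, 20 and 8 counts, 17 in Control-AI 4 and 70 in Control-AI 2. TTR had 3, 3, 21 and 16 counts, 13 in Control-AI 4 and 48 in Control-AI 2. The order of libraries was again Control-AI 2 above all others, with ART-Normal 1 lowest or level with the lowest. AFM had 0, 1, 1 and 0 counts in ART-Normal 1 to 4, 0 in Control-AI 4 and 4 in Control-AI 2, and the floor of 3 counts that a count of 0 allows was 0.126, 0.156 and 0.127 CPM in the ART-Normal 1, ART-Normal 4 and Control-AI 4 muscles, respectively.

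Of the 7 genes, 2 passed the filter of 5 CPM in muscle, ALB and AHSG, and both did so through the control group. Their log2 fold changes, ART-Normal relative to the controls, were -2.98 for ALB (standard error 0.81, adjusted p = 0.326) and -3.01 for AHSG (0.90, adjusted p = 0.356) by edgeR's quasi-likelihood test. Over all 11695 tested genes 1 (0.00855%) passed, the stress-responsive muscle gene ANKRD1, and 1075 (9.19%) had an unadjusted p under 0.05. Without Control-AI 2 the values were -0.03 for ALB and 0.35 for AHSG (adjusted p of 0.998 and 0.98), a change of direction for AHSG, where 5 of 11853 genes (0.0422%) were called. Without Control-AI 4, 5 of the 7 genes entered the test and passed, with ALB at -3.89, AHSG at -3.94, GC at -3.78, FETUB at -3.38 and AFP at -3.11, where 1327 of 12215 genes (10.9%) were called. A filter that these genes met only through the high library fixes that direction. With all 6 muscle libraries the likelihood ratio test called 120 genes (1.03%), with ALB among them (adjusted p = 0.0254) and AHSG not (0.0525), and DESeq2 called 106 (0.906%), neither gene among them (0.303 and 0.383).

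Control-AI 2 muscle exceeded the mean of the other 5 muscle libraries by 3.95 for AHSG, 3.79 for ALB, 3.10 for AFP, 2.76 for GC, 2.50 for FETUB, 2.07 for TTR and 0.65 for AFM, on the log2 scale with 0.5 CPM added. In all, 49 of 11695 tested muscle genes (0.419%) were at least 4-fold higher in that library. GC, FETUB and TTR were within 0.51 of the other livers in the liver library of this fetus. On the same scale each was at least 4-fold above the mean of the others in its muscle library. These 3 genes were below the muscle filter, so they are not among those 49. Against the highest other muscle library, TTR in Control-AI 2 was 3.98 times as high in CPM. SERPINA1 was at 61.6 CPM in this muscle library, 2.76 CPM in that of Control-AI 4 and 0.716 to 6.61 CPM in the ART-Normal muscles. The hepatocyte markers together summed to 233 CPM, against 101 CPM in Control-AI 4 and 64.0 to 100.5 CPM in ART-Normal, and to 171, 98.3 and 63.3 to 97.5 CPM without SERPINA1. Control-AI 2 lay above all other muscle libraries for 16 of the 20 hepatocyte markers and within their range for 4. The erythroid sum did not share this order, at 101 CPM in Control-AI 2, 328 CPM in Control-AI 4 and 213 to 683 CPM in ART-Normal. Of the 12 erythroid markers, Control-AI 2 muscle was above all others for 7, within their range for 2 and below it for 3. The part of liver RNA in this library was not tested.

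Each muscle share of counts was set against the liver share of the same fetus. In Control-AI 2, the muscle share was 0.156% of the liver share for ALB, 0.154% for AFP, 0.155% for GC, 0.142% for AHSG, 0.122% for FETUB and 0.231% for TTR. The highest was thus 1.90 times the lowest over these 6 genes, and AFM, with 4 counts, stood at 0.112% (95% counting interval 0.0305% to 0.287%). The other fetuses showed no such common value. Among them the highest of the 6 genes was 8.20 to 29.7 times the lowest, and it was AHSG each time, at 0.0306%, 0.187%, 0.321% and 0.222% in ART-Normal 1 to 4 and 0.0960% in Control-AI 4. The 29.7, in ART-Normal 1, rested on 1 FETUB muscle count (0.00103%, 95% counting interval 2.61e-05% to 0.00573%). GC stood at 0.00115%, 0.0204%, 0.0176% and 0.00977% in ART-Normal 1 to 4 and 0.0117% in Control-AI 4.

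**Figure D5:**
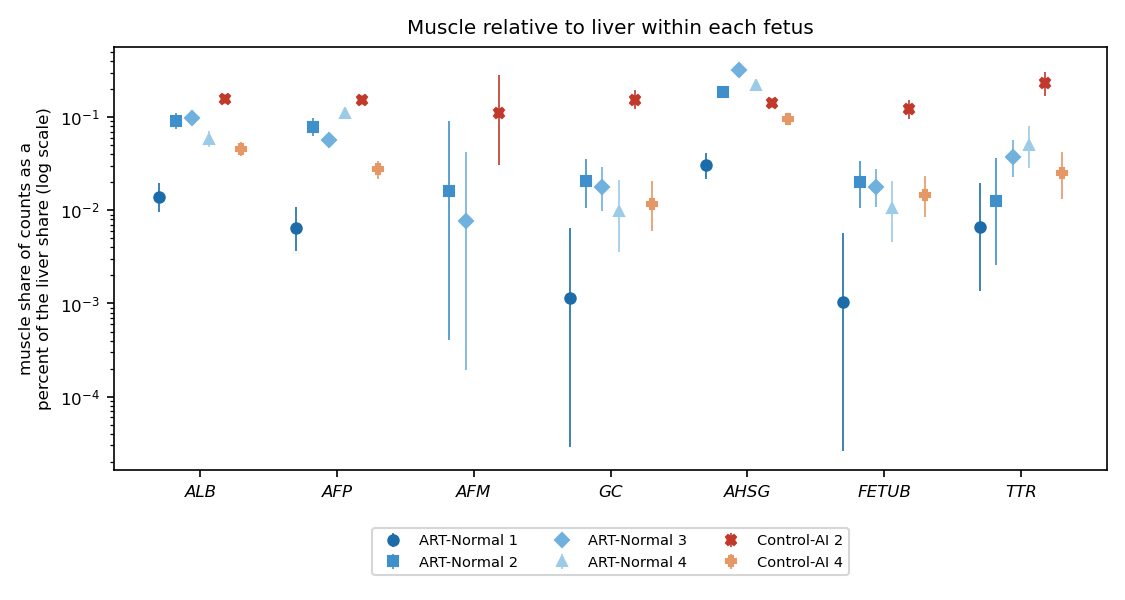
Muscle share of counts as a percent of the liver share of the same fetus, on a log axis, with 95% counting intervals; each point is 1 fetus and values of 0 are not drawn. Control-AI 2 lies at 0.112% to 0.231% for all 7 genes, while in the other fetuses AHSG lies highest (0.0306% to 0.321%) and GC and FETUB lie at or below 0.0204%.

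The mix of the 7 genes within a library was also compared. In the other 5 livers AHSG made up 13.1% to 18.9% of the counts of the 7 genes, and ALB 26.2% to 28.0%. In Control-AI 2 liver AHSG made up 53.4%, ALB 26.8% and AFP 14.8%. Control-AI 2 muscle held nearly that mix, with 51.2%, 28.2% and 15.4%. This likeness was not particular to that fetus. In the same order the shares were 51.2%, 26.1% and 16.2% in ART-Normal 3 muscle. They were 42.8%, 29.0% and 20.6% in ART-Normal 2 muscle, and 41.3%, 30.7% and 18.6% in Control-AI 4 muscle. In the other muscle libraries AHSG made up 35.0% to 51.2%, above its share in every liver other than that of Control-AI 2. The ratio of AHSG to ALB was 1.29 to 1.96 in all 6 muscle libraries, while AFP to ALB was 0.484 to 0.712 in 5 of them and 2.02 in ART-Normal 4, with 192 AFP and 95 ALB counts.

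Whether the difference between conception groups itself differed between the tissues was tested as an interaction, muscle minus liver. None of 12923 genes passed in edgeR's quasi-likelihood test (0%), while 717 had an unadjusted p under 0.05 and the likelihood ratio test called 98 genes (0.758%), 0 of the 7 among them. Among the 7 genes, GC was at -2.37 (standard error 0.99, adjusted p = 0.854) and FETUB at -2.08 (0.94, adjusted p = 0.888), and the others had an adjusted p of 0.925 or above. Without Control-AI 2 these values were -0.01 for GC and -0.29 for FETUB, and 0 of 13178 genes passed. Without Control-AI 4, GC alone of the 7 passed (-3.26, adjusted p = 0.0156), where 232 of 13358 genes did (1.74%).

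Genes that act on or with the 7 showed no member past the adjusted threshold between conception groups in either tissue by edgeR's quasi-likelihood test. That sets them apart from little, since 0 of 11304 liver genes and 1 of 11695 muscle genes passed. Of 13 listed regulators of ALB and AFP, all were tested in liver and 4 in muscle. In liver 0 passed and 2 had an unadjusted p under 0.05, against 0% and 8.39% of all tested genes. The median log2 fold change of the regulators in liver was -0.06, against 0.01 over all genes, and 0.06 without Control-AI 2. HNF4A, a central hepatocyte transcription factor, measured 226 to 277 CPM in ART-Normal livers, 210 CPM in the liver of Control-AI 4 and 248 CPM in that of Control-AI 2. PROX1, a regulator of liver development, measured 118 to 137, 118 and 142 CPM in the same order. FOXA3 measured 45.0 to 74.8, 74.2 and 75.7 CPM, and FOXA2 51.4 to 60.6, 55.3 and 53.1 CPM; both are forkhead factors that bind liver genes. Control-AI 2 thus lay within or near the range of the other livers for these 4 regulators. Between the tissues, 11 of the 13 were higher in liver and 0 higher in muscle, against 40.5% and 39% of all tested genes.

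Around TTR, 6 of 10 genes of retinol and thyroid hormone carriage were tested in liver and 5 in muscle. In liver 1 had an unadjusted p under 0.05 by edgeR's quasi-likelihood test, against 8.39% of all tested genes. The median log2 fold change in liver was -0.20, against 0.01 over all genes, and -0.04 without Control-AI 2. RBP4, the retinol carrier that TTR binds, measured 587 to 906 CPM in ART-Normal, 857 CPM in the liver of Control-AI 4 and 1243 CPM in that of Control-AI 2 (log2 fold change -0.44, adjusted p = 0.589). SERPINA7, the thyroxine-binding globulin, measured 165 to 191, 186 and 194 CPM. The thyroid hormone receptor THRB measured 96.4 to 120, 89.0 and 86.6 CPM. Of the 7 genes of this list tested between the tissues, 5 were higher in liver and 2 in muscle, against 40.5% and 39% of all tested genes.

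Around GC and ALB, 6 of 9 genes of vitamin D handling and albumin uptake were tested in liver and 3 in muscle. In liver 0 had an unadjusted p under 0.05, against 8.39% of all tested genes, and the median log2 fold change was -0.03. FCGRT, the receptor that spares albumin from breakdown, measured 97.5 to 143 CPM in ART-Normal, 125 CPM in the liver of Control-AI 4 and 141 CPM in that of Control-AI 2. LRP2, the endocytic receptor megalin, measured 101 to 142, 111 and 137 CPM. AMN, a partner of cubilin, measured 18.6 to 33.3, 40.2 and 20.0 CPM, and CYP2R1, a vitamin D 25-hydroxylase, 13.4 to 17.4, 18.2 and 14.1 CPM. Between the tissues 4 of 5 tested genes were higher in liver and 1, CYP27A1, was higher in muscle, against 40.5% and 39% of all tested genes.

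Around the fetuins, 5 of 7 genes of the cystatin superfamily and of protease partners were tested in liver and 2 in muscle. In liver 1 had an unadjusted p under 0.05, against 8.39% of all tested genes, and the median log2 fold change was -0.03. KNG1, which encodes kininogen, measured 939 to 1321 CPM in ART-Normal, 1181 CPM in the liver of Control-AI 4 and 989 CPM in that of Control-AI 2. HRG, the histidine-rich glycoprotein, measured 37.5 to 55.6, 28.6 and 62.7 CPM. In the liver library of Control-AI 2, KNG1 thus lay inside the range of the other livers and HRG somewhat above it, neither as far out as AHSG. The protease inhibitors CST3 and CSTB measured 22.0 to 36.0, 32.6 and 30.6 CPM, and 20.1 to 33.6, 26.8 and 27.8 CPM. A further CSTB entry, below the filter, measured 0.0766 to 0.862, 0 and 3.59 CPM in the same order, highest in Control-AI 2. KNG1 and HRG were higher in liver than in muscle by 13.34 and 11.50 on the log2 scale, and CST3 was higher in muscle.

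The genes whose log2 CPM followed ALB most closely over the 6 livers were SERPINA1 (r = 0.997), KCNQ1 (0.993) and BBIP1 (0.992). For AFP they were AKAP2 (r = 0.995), MCM4 (0.992) and HVCN1 (0.989). These points share Control-AI 2, far from the rest. Over the 5 livers without it, the closest to ALB were MANSC1 (0.990), LAT2 (0.988) and SERPINA1 (0.987), and the closest to AFP were RMI2 (0.997), RNF157 (0.995) and CMTM3 (0.994). SERPINA1 alone of the 3 genes named for ALB was named again. With 5 or 6 libraries these values describe the libraries only.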

How the data were processed

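The authors deposited raw read counts per gene for liver and skeletal muscle on ARS-UCD1.2, with no normalization. The submitters' processing notes name FastQC 0.11.7, HISAT2 2.1.0, SAMtools, featureCounts, Cufflinks and edgeR 3.24.3. Libraries were poly(A)-selected and strand-specific, per the labels. Each listed length equals the whole gene span, so intronic reads could be counted, and 9 gene identifiers are each on 2 lines. A further 14 count columns, 7 per table, were not used. The authors' tables of comparisons, which hold a log2 fold change, log2 CPM, likelihood ratio, p-value and FDR, were not used.

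Counts were tested with edgeR 4.0.16 in R 4.3.3: TMM scaling, a filter that kept genes reaching 5 CPM in every library of either group, the quasi-likelihood test and Benjamini-Hochberg adjustment at 0.05 over all tested genes, two-sided. Standard errors are the absolute log2 fold change divided by the square root of F. The 4 ART-Normal fetuses were set against both controls per tissue, liver with muscle in ART-Normal fetuses, and the interaction over 12 libraries. Procedures were tested on simulated data. Tables and plots used Python 3.11.15, pandas 2.3.3 and Matplotlib 3.10.9. Poisson intervals (95%) and floors of 3 counts cover counting error only. No 2 libraries of a tissue agreed within sampling noise.

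The 7 members and all gene lists were chosen with earlier results of these data known. Named list genes are the 4 with the highest mean CPM, of which 1 is not reported here. ANKRD1, HBG, EEF1A1, MT1A, CYP27A1, and in muscle SERPINA1, APOA1, F2 and TF, were named after their values were seen. Of the regulators, ZBTB20 was not analysed here. Connective tissue, macrophage, endothelial and cholangiocyte markers were also examined. No member of these lists passed between conception groups, where 0 of 11304 liver genes and 1 of 11695 muscle genes passed. Between the tissues, 40.5% of all tested genes were higher in liver and 39% in muscle. All 7 connective tissue markers were higher in muscle, all 8 macrophage markers in liver, and of 6 endothelial markers 2 were higher in liver and 3 in muscle. Of 4 tested cholangiocyte markers, 3 were higher in liver and 1 in muscle.

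Liver and muscle of a fetus are paired by the fetal identifier. Deviations from the group mean correlated between the tissues at r of 0.30, 0.06, 0.09 and 0.43 in ART-Normal 1 to 4, and at 0.50 for the controls. For ART-Normal 3 the own pair was not the best match, unlike for the other ART-Normal fetuses. With only 2 controls the deviations of one mirror those of the other, so their value cannot check the pairing. Alternatives were RLE and upper quartile scaling, library size alone, totals without the 7 genes, the likelihood ratio test, DESeq2 1.42.0, dropping the filter, a minimum of 10 counts per library, ART-Normal 1 to 3 only, a replicate block, and leaving out each library. The ratios other than AFP to ALB, the level in Control-AI 2 over the other libraries, the muscle share of the liver share, the marker sums without SERPINA1 or HBG, and likeness without Control-AI 2 were added after the data were seen.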

Additional observations from a re-analysis of the deposited data

Results flagged for a closer look

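In liver, the ratio of AFP to ALB counts in ART-Normal 2 was 0.825, far below the other ART-Normal livers relative to their range, which reached 1.07. In muscle, the same ratio in ART-Normal 4 was 2.02, far above the others, with the lowest at 0.484. The levels and ratios of 29 groups were examined in this way, and chance alone is expected to single out about 5% of groups.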

How the results depend on the processing

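In liver, the count of genes past the threshold (0 of 11304) was 8 with library size alone, which moved the median of all genes to 0.21 on the log2 scale and put AHSG past the threshold as 1 of the 7, 89 by the likelihood ratio test (3 of the 7), 56 by DESeq2 (1 of the 7), 2 with ART-Normal 1 to 3 only, and 0 to 830 when each library was left out (0 to 3 of the 7, the highest without Control-AI 4). In muscle, where 1 gene passed, the count was 120 by the likelihood ratio test (1 of the 7), 106 by DESeq2, 0 with ART-Normal 1 to 3 only, and 0 to 1327 with each library left out (0 to 5 of the 7, again highest without Control-AI 4). Leaving out Control-AI 2 gave 1 gene in liver and 5 in muscle. AHSG in muscle then reversed to 0.35, and leaving out others gave down to -3.94. The interaction called 98 genes by the likelihood ratio test and 0 to 232 with each fetus left out (0 to 1 of the 7), and without Control-AI 2 its values reversed to 0.48 for ALB, 1.08 for AFP, 2.42 for AFM and 0.13 for TTR, against lows of -1.04, -1.12, -3.76 and -2.61 with other fetuses left out. The log2 difference in AFP to ALB in liver (0.42) ranged from -0.00848 without Control-AI 2, a reversal, to 0.851. Between the tissues, all 7 genes passed under each alternative except that 3 of the 7 remained testable with at least 10 counts in every library, and all 3 passed. The causes of these changes were not tested.

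ART-Normal and Control-AI share the numbers 2 and 4 but not animals. Deviations of same-numbered libraries correlated at 0.03 and -0.14 in liver and -0.03 and -0.20 in muscle, so the number did not pair them. With it as a replicate block, 6 genes passed in liver (0 of the 7, with AFM reversed to -0.14) and 90 in muscle (0.77%), among them ALB (-2.04, adjusted p = 1.48e-05) and AHSG (-1.96, adjusted p = 9.82e-05), by edgeR. ART-Normal fetuses without a same-numbered control were alone in their block, so this contrast rested on numbers 2 and 4, pairing separate animals. ALB and AHSG also entered the muscle test only through the control group. These p-values are therefore not read as a difference between conception groups. The fetus as a block changed no call of the 7 between the tissues or in the interaction.

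Precision was limited by 2 controls that differed strongly, by few muscle counts, and by whole-span counting. The sequences, exon lengths and promoters of these genes were not used here.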
